A study of Caenorhabditis elegans with 2 samples.

Results

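The CCT chaperonin of Caenorhabditis elegans is encoded by the 8 genes cct-1 to cct-8, chosen here by name from 19973 nuclear protein-coding genes of the WBcel235 annotation, and this account describes RNA polymerase II occupancy at those 8 genes. Occupancy was measured by chromatin immunoprecipitation followed by sequencing (ChIP-seq) with AMA-1, the largest polypeptide of that polymerase, as the target, in whole young adults of mixed sex. All worms were of strain YL489, which carries the unc-119(ed3) mutation on chromosome III and the integrated transgene vrIs104. In that transgene the germline promoter of pie-1 drives AMA-1 joined to GFP and FLAG, with the puf-5 3′ UTR and a wild-type copy of unc-119 as the rescue marker. There were 2 biological replicates of this single group and no second condition. The labels do not say if the antibody recognised the tag or the native protein, so which tissues gave the signal is unknown. Whole worms were used, so occupancy in more cells and more occupancy per cell cannot be told apart.

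CCT, also called TRiC, is a chaperonin of the cytosol, a barrel of stacked rings in which each ring holds 1 copy of the 8 different subunits. It binds newly made polypeptides, closes over them and releases them folded at the cost of ATP. Actin and tubulin are its best known clients and depend on it, and the prefoldin complex hands them over to it. In C. elegans, loss of CCT subunits disturbs microtubules and embryonic cell division, and extra CCT-8 has been linked to long life.

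The 8 genes share a layout. Each has its nearest upstream protein-coding neighbour on the opposite strand, which was so for 46.2% of all nuclear protein-coding genes, and for all 8 that neighbour lay within 1500 bp (26.0% of all genes). Downstream, 5 of 8 (cct-2, cct-3, cct-5, cct-6 and cct-8) are followed on the same strand within 500 bp by another gene, an arrangement found at 20.6% of all genes. On chromosome II lie cct-1 (WBGene00000377, 8185443 to 8187601), cct-2 (WBGene00000378, 8927741 to 8929815), cct-3 (WBGene00018782, 2233540 to 2243539) and cct-4 (WBGene00000379, 8283667 to 8285711), all on the plus strand. On the minus strand of chromosome III lie cct-5 (WBGene00000380, 4499188 to 4508114) and cct-6 (WBGene00000381, 5853530 to 5855687). The plus strand of chromosome V holds cct-7 (WBGene00020391, 1872246 to 1875505), and the minus strand of chromosome IV holds cct-8 (WBGene00021934, 1087108 to 1093920). The genes range from 2045 bp for cct-4 to 10000 bp for cct-3. The annotated 5′ end lies only 1 to 30 bp before the first start codon at the 8 genes. Since trans-splicing removes the first bases of many worm transcripts, transcription may begin further upstream than annotated.

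Regulatory sequence upstream was searched on both strands, from 250 bp before to 50 bp after the annotated 5′ end, for the words GAANNTTC and TTCNNGAA. Each is a pair of the inverted repeats that make up a heat shock element, the site bound by heat shock factor, and the words can overlap each other. At least 1 of them stood in 7 of 8 CCT promoters, against 32.5% of all 19973 promoters. GAANNTTC was present in 5 of 8 (18.5% of all promoters) and TTCNNGAA in 5 of 8 (18.9%). The exception was cct-2, whose promoter window held neither. A TTCNNGAA word lies just outside that window, with its first base 266 bp upstream of the cct-2 end and 6 bp from the strongest pooled summit of the gene. It is not part of the count of 7, and no share of all promoters was counted for a wider window. The word TATAAA was found in 2 of 8, cct-2 and cct-8 (37.9% of all), and none of the E2F-like words TTTCCCGC, TTTGGCGC, TTTCGCGC and TTTGCCGC in any of the 8 (4.69% of all). These matches are a description of the letters and say nothing of whether a factor was bound. They are printed because 7 of the 8 promoters hold one. The optimal peak upstream of cct-8 lies outside the promoter window and holds other words, which are shown with it below. Each line gives 30 bases of build ce11, read 5′ to 3′ on the strand of the gene. The heat shock word nearest to the annotated 5′ end is in capitals. For cct-2 the word shown is the one beside the summit, outside the promoter window.
cct-1, chrII:8185293-8185322, plus strand: gatccccgattTTCTGGAAgcatttttatt
cct-2, chrII:8927464-8927493, plus strand: atattttgagtTTCGAGAAggattttccct
cct-3, chrII:2233507-2233536, plus strand: aggtgttccttGAAAATTCccccaaatttc
cct-4, chrII:8283490-8283519, plus strand: agctatagaatTTCTAGAAgaattattatt
cct-5, chrIII:4508246-4508275, minus strand: tcattcctcgaGAATATTCtgcgggtttga
cct-6, chrIII:5855908-5855937, minus strand: gcgaatttattTTCTAGAAtaaattcaaac
cct-7, chrV:1872076-1872105, plus strand: tggatctttgtGAATTTTCcagattttctt
cct-8, chrIV:1094091-1094120, minus strand: tttgtcatcgtGAAGTTTCtcaaagtgaat

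The deposited data are lists of regions, each with a summit (its point of highest signal), the authors' signal value, whose scale is not given, and the −log10 of a q-value. The optimal list holds 887 reproducible peaks. The candidate lists behind it hold 30000 regions for the pooled replicates, 28020 for replicate 1 and 30000 for replicate 2, many of them background regions, since the lists were prepared as input for the reproducibility procedure. The optimal peaks are the 887 strongest pooled regions. Strength is given below as the rank by signal within a list, with 1 the strongest, and ranks of different lists are set side by side only as values. A gene was counted as carrying a region when the summit lay inside the gene or within 1000 bp of it. The lists hold no read counts, so sequencing depth is unknown and no interval can be given for a signal. With a single group, and members picked by name when earlier results of these data were known, no test was made, and each count is read against the share of all genes that met the same rule.

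Reproducible AMA-1 peaks lay at 3 of the 8 CCT genes, cct-7, cct-8 and cct-6, against 5.35% of all nuclear protein-coding genes and 6.34% of the 8899 genes whose length falls within the range of the CCT genes. Of the 8 genes, 1 had its peak at the 5′ end (1.93% of all genes): cct-8, which encodes the theta subunit. At 2, cct-7 and cct-6, the genes of the eta and zeta subunits, the peak lay at the 3′ end (2.81%), and at 0 in the gene body (0.956%). An end here means outside the gene on that side, or inside within 500 bp of it. The count rests on both libraries. Among the 887 strongest regions of replicate 1 alone, 4 genes had a summit (cct-1, cct-5, cct-6 and cct-8, against 5.19% of all genes). Among the 887 strongest of replicate 2 alone there was 1, cct-7 (5.15%). Across either replicate 5 of 8 genes reached that rank (8.06%). No CCT gene did so in both. The share of all genes that did so in both was not counted, so this is not read as a result about the CCT genes.

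**Figure D1:**
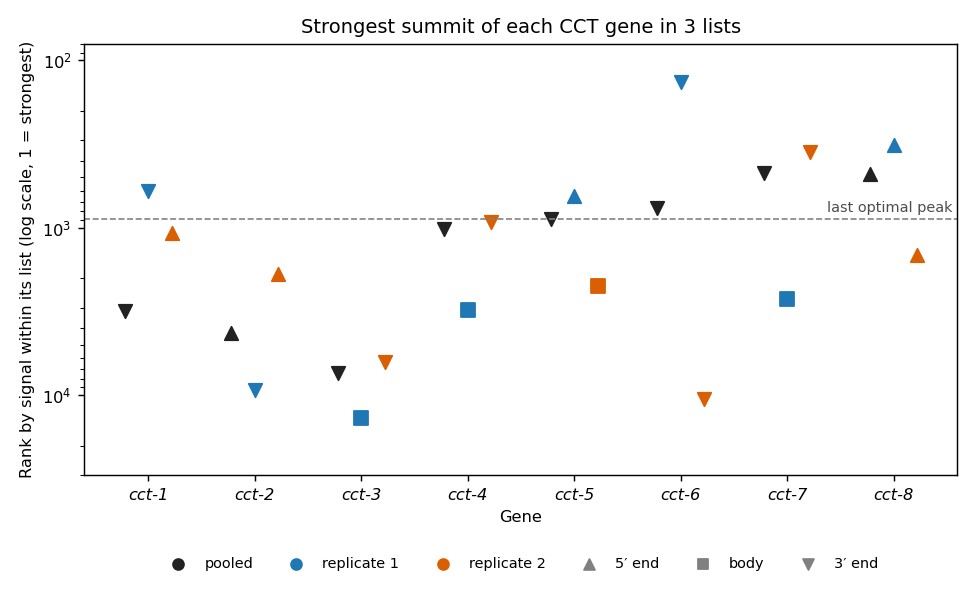
Rank by signal of the strongest summit within 1000 bp of each CCT gene in the pooled list (black), replicate 1 (blue) and replicate 2 (orange), on a log axis with the strongest at the top. Triangles pointing up mark summits at the 5′ end, squares the gene body and triangles pointing down the 3′ end. The dashed line is rank 887, the last optimal peak. The black points of cct-6, cct-7 and cct-8 lie above it and cct-5 falls just below, while the replicates of cct-6 stand far apart.

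At cct-8 the strongest summit of each replicate lay at the optimal peak. The optimal summit on chromosome IV at position 1094343 had a signal of 49.0, −log10 q of 3.90 and pooled rank 480. Replicate 1 had a summit 23 bp away (signal 27.4, rank 322) and replicate 2 had one 38 bp away (signal 20.6, rank 1456). The site is intergenic, 423 bp upstream of cct-8 and 198 bp upstream of Y55F3AR.2, which is transcribed in the opposite direction, so which of the pair it belongs to cannot be told apart. The called region, from 1094203 to 1094482, holds 2 GAANNTTC words, 38 and 86 bp from the summit, and an E2F-like word on the summit itself. Among nuclear optimal regions of the same 280 bp, 16.2% hold GAANNTTC and 6.49% an E2F-like word. They are shown on the strand of cct-8 with the words in capitals, since this is the one reproducible peak upstream of a CCT gene.
cct-8 peak, chrIV:1094330-1094359, E2F-like word: catctcccgtgGCGGCAAAtcgcggcggga
cct-8 peak, chrIV:1094287-1094316, heat shock word: tcaatgctcgcGAATTTTCcgaatttcaaa
cct-8 peak, chrIV:1094239-1094268, heat shock word: gtgttttccatGAAATTTCtttagtttttc

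At cct-7 the summit lay inside the 3′ untranslated region on chromosome V, at 1875461, 44 bp before the annotated end. It was the highest ranked of the 8 genes in the pooled list, with a signal of 49.2 and rank 472. The site ranked high in 1 replicate: replicate 2 had a summit 56 bp away with signal 36.6 and rank 352, and replicate 1 had one 11 bp away with signal 8.59 and rank 6399. The gene zig-11, which encodes an immunoglobulin-domain protein, ends on the opposite strand 28 bp inside cct-7, and the summit lay 17 bp past its annotated 3′ end. The site is thus the shared 3′ end of a convergent pair. The region from 1875321 to 1875600 holds 1 GAANNTTC word, which covers the summit. Over the strongest pooled regions of the 8 genes, 4 hold a heat shock word of either kind (cct-2, cct-5, cct-7 and cct-8) and 4 hold none (cct-1, cct-3, cct-4 and cct-6), against 27.0% of optimal and 33.6% of pooled nuclear regions of that width with one. Taken alone, GAANNTTC was in 2 of 8 (16.2% of optimal and 19.6% of pooled regions) and TTCNNGAA in 2 of 8 (14.6% and 19.2%). TATAAA was in 4 of 8 (26.6% and 27.4%) and an E2F-like word in 1 of 8 (6.49% and 4.72%). In replicate 1 the strongest summit of cct-7 was elsewhere, in an intron 935 bp before the 3′ end (signal 13.0, rank 2649).

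At cct-6 the replicates differed in the other direction. The optimal summit on chromosome III at 5853376 had a signal of 39.9 and rank 763, and lay 154 bp past the 3′ end of cct-6 and 107 bp upstream of ddx-23, a DEAD-box RNA helicase gene that follows on the same strand after 260 bp. Replicate 1 had a summit 52 bp away at rank 135 (signal 35.8), the highest rank of any CCT gene in the 4 ce11 lists. The nearest summit of replicate 2 was 149 bp away at rank 10547 (signal 9.04) and fell within the coding sequence of ddx-23. At its 5′ end cct-6 had only weak candidates, at rank 26683 in the pooled list, rank 15008 in replicate 2 and none in replicate 1.

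The cutoff of the optimal list falls directly beside a CCT gene. The last optimal peak had rank 887 and signal 37.68, and the strongest summit of cct-5, the gene of the epsilon subunit, had rank 890 and signal 37.63. The optimal list that the authors made on build ce10 holds 898 peaks and includes the same region at rank 889. With that list the count of CCT genes is 4. Regions were matched by chromosome, width and signal, without converting coordinates. Only the strongest pooled region of each CCT gene was looked up, and the share of all genes on that list was not counted. The ce11 summit of cct-5, on chromosome III at 4499030, lay 158 bp past the 3′ end of the gene. It fell in the 5′ untranslated region of atf-7, a bZIP transcription factor gene that starts 142 bp downstream on the same strand, and in the short annotated gene C07G2.5. Replicate 1 had a summit 15 bp away (signal 20.0, rank 779) and replicate 2 had one 2 bp away (signal 9.31, rank 10008). Next came cct-4, the gene of the delta subunit, at rank 1013 with signal 35.8. That summit, on chromosome II at 8285896, is intergenic and lay 185 bp past the 3′ end. Replicate 1 had a summit 34 bp away (signal 7.08, rank 8905) and replicate 2 had one 24 bp away (signal 24.4, rank 919). Here no other protein-coding gene is close: the next one downstream, nlp-55, is 9117 bp away on the opposite strand. This is thus the 3′ site with no neighbouring protein-coding gene end to share it. Ends of non-coding genes were not searched for in this comparison.

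The remaining members, cct-1, cct-2 and cct-3, ranked lower. For cct-1, the gene of the alpha subunit, the pooled rank was 3153 (signal 23.6), from a summit on chromosome II at 8187725, 124 bp past the 3′ end and inside a coding exon of T05C12.8, which overlaps the end of cct-1 on the opposite strand. Replicate 1 had a summit 4 bp away (signal 21.9, rank 607) and replicate 2 had one 46 bp away (signal 8.53, rank 11690). Replicate 2 also had a region of rank 1076 (signal 22.8) at the 5′ end of cct-1, with its summit 160 bp upstream, between the heat shock words of that promoter. It had no counterpart at the 5′ end in the pooled list, and the only 5′ summit of replicate 1 lay 330 bp inside the gene (rank 4924).

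The gene of the beta subunit, cct-2, was the only one besides cct-8 with its strongest pooled summit upstream. That summit, on chromosome II at 8927488, lay 253 bp before the annotated 5′ end in intergenic sequence, with signal 21.2 and rank 4234. Replicate 2 had a summit 44 bp away (signal 18.6, rank 1883), whereas the nearest summit of replicate 1 was 2171 bp away, near the 3′ end (rank 14727). This upstream site was thus seen in replicate 2 and in the pooled list but not in replicate 1. The lowest of the 8 was cct-3, the gene of the gamma subunit, whose strongest pooled summit had signal 16.7 and rank 7343 on chromosome II at 2243729. It lay 190 bp past the 3′ end and 87 bp inside F54A3.2, the next gene on the same strand. Replicate 1 had a summit 7 bp away (rank 15689) and replicate 2 had one 22 bp away (signal 11.7, rank 6300).

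Ordered by pooled rank the genes ran cct-7, cct-8, cct-6, cct-5, cct-4, cct-1, cct-2 and cct-3. The first genes were close, with pooled ranks 472 for cct-7 and 480 for cct-8. A pooled list has no spread of its own, so no error can be given for this order. The replicates ordered the genes differently. By strongest summit cct-6 came first in replicate 1 (rank 135) and last in replicate 2 (rank 10547). First in replicate 2 was cct-7 (rank 352), which had rank 2649 in replicate 1. For the top of the pooled order, 2.74% of all nuclear protein-coding genes had a strongest pooled summit ranked at least as high as that of cct-7. The share was 5.38% for cct-5 and 6.07% for cct-4. For the bottom, the share was 15.5% for cct-1, 19.2% for cct-2 and 27.7% for cct-3.

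**Figure D2:**
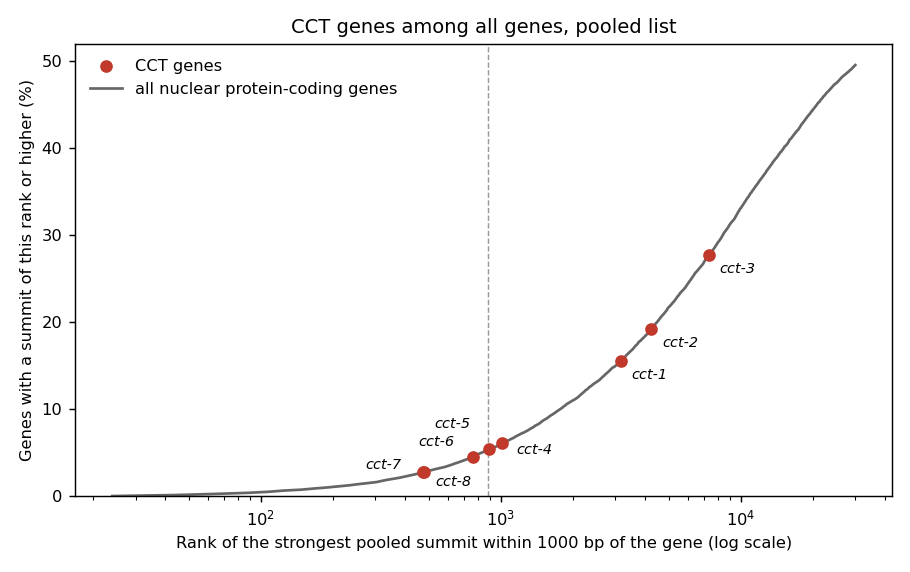
Share of all nuclear protein-coding genes (grey line, %) whose strongest pooled summit within 1000 bp has the rank on the log axis or a higher one, with the 8 CCT genes as red points on the same line. The dashed line marks rank 887. The points spread from 2.74% for cct-7 to 27.7% for cct-3, and the line ends at 49.6%, the share of genes with any pooled summit.

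All 8 CCT genes had a candidate summit in each long list. The shares of all genes were 49.6% in the pooled list, 56.0% in replicate 1, 57.0% in replicate 2 and 44.2% in both replicates, so presence in a candidate list is common. Genes in the CCT length range had a pooled summit in 57.3% of cases. A pooled summit with the highest −log10 q, 3.90, was found at 6 of 8 (all but cct-2 and cct-3), against 18.3% of all genes and 21.6% of genes in the CCT length range. The 8 genes together held 50 pooled, 45 replicate 1 and 39 replicate 2 summits. Per kb of gene and flanks their median was 0.910 pooled summits, from 0.667 at cct-3 to 1.52 at cct-7, against 0.206 for genes in the CCT length range and 0 for all genes. None of the strongest summits lay within 250 bp of a tRNA, snoRNA or snRNA gene.

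The 50 pooled summits at the CCT genes were spread over the genes, with 19 in the body, 18 at the 3′ end and 13 at the 5′ end. The strongest pooled summit was at the 3′ end in 6 of 8 CCT genes, at the 5′ end in 2 (cct-2 and cct-8) and in the body in 0. Among the 9902 genes with a pooled summit the shares were 43.1% at the 3′ end, 36% at the 5′ end and 20.9% in the body. For 5 genes (cct-1, cct-3, cct-4, cct-5 and cct-6) the strongest pooled summit lay 100 to 200 bp past the annotated 3′ end, at 124, 190, 185, 158 and 154 bp, against 5.64% of all genes with a pooled summit. The strongest summit lay in that interval at 2 of 8 genes in replicate 1 (4.92% of genes with a summit there), 2 of 8 in replicate 2 (4.76%) and 1 of the 3 genes with an optimal peak (8.89%). This interval was chosen after the values had been seen, and the pooled count is more than 1.5 times that of either replicate alone. At cct-3, cct-5 and cct-6 it also covers or adjoins the start of the next gene on the same strand, so the end of the CCT gene and the start of its neighbour cannot be told apart there. At cct-1 the summit lay in a coding exon of T05C12.8, which overlaps the end of cct-1 on the opposite strand. That site cannot be assigned to either gene alone. Counting any summit, all 8 genes had one at the 3′ end in the pooled list (36.8% of all genes), in replicate 1 (36.7%) and in replicate 2 (39.8%). At the 5′ end the counts were 7 of 8 in the pooled list (33.7%), 5 in replicate 1 (33.8%) and 6 in replicate 2 (37.3%). In the gene body they were 6 of 8 in the pooled list (25.5%), 6 in replicate 1 (26.8%) and 5 in replicate 2 (28.2%).

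**Figure D3:**
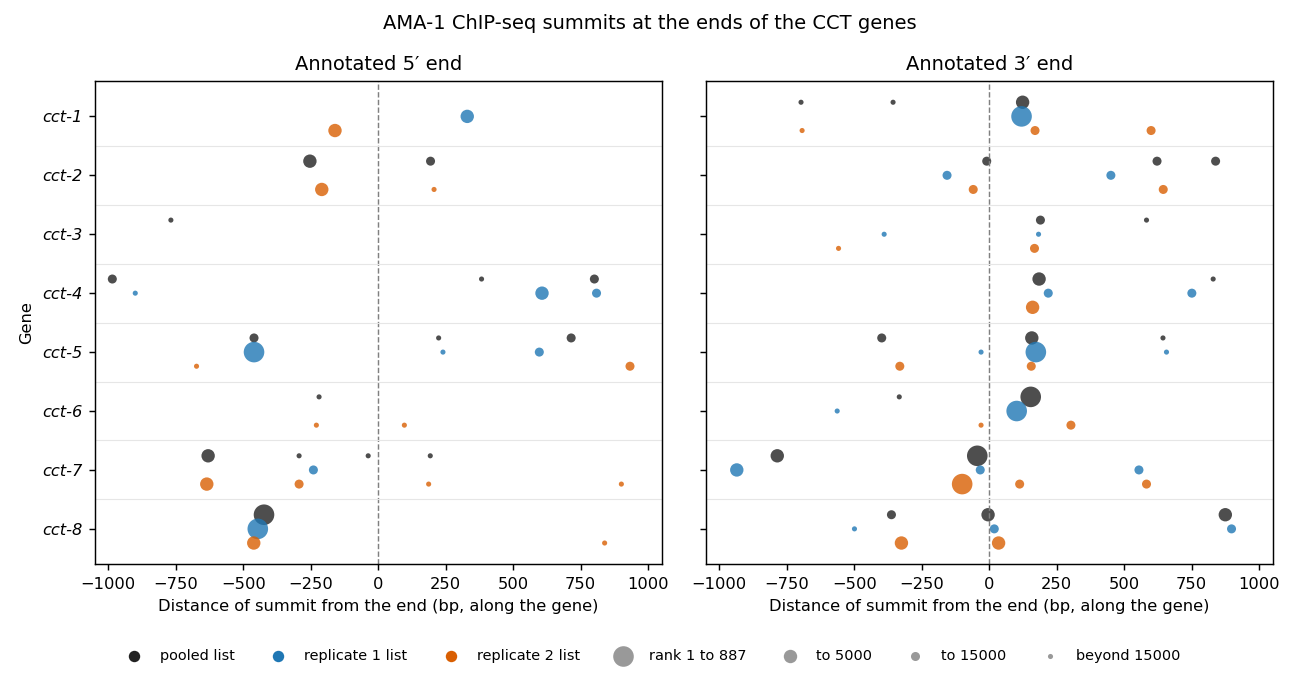
Summits within 1000 bp of the annotated 5′ end (left) and 3′ end (right) of each CCT gene, in bp along the gene with upstream to the left. Black points are the pooled list, blue replicate 1 and orange replicate 2; larger points have higher ranks. All 3 lists have a point between 100 and 200 bp past the 3′ end of cct-1, cct-3 and cct-5; at cct-4 replicate 1 lies at 219 bp. At cct-8 the 3 points stand together upstream, 423, 446 and 461 bp before the 5′ end.

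The replicates taken alone did not show the pooled share of 3′ ends, and their shares were near those of all genes. The strongest summit was at the 3′ end in 3 of 8 CCT genes (37.5%) in replicate 1 (40.4% of the 11193 genes with a summit there) and in 4 of 8 (50%) in replicate 2 (41.6% of 11376). It was in the body in 3 and 1 genes of replicates 1 and 2, and at the 5′ end in 2 and 3. The replicates placed it in the same part of the gene at 2 of 8, cct-6 and cct-8, against 52.3% of the 8822 genes with a summit in both and 48.2% of such genes in the CCT length range. The 2 summits were 15 bp apart at cct-8 and 201 bp apart at cct-6, and between 835 bp (cct-7) and 7423 bp (cct-3) apart at the other 6. They were at most 200 bp apart at 1 of 8 CCT genes. The share was 21.3% of all genes with a summit in both replicates and 18.8% of those in the CCT length range. A summit of each replicate lay within 150 bp of the strongest pooled summit at 7 of 8 genes, all but cct-2, compared with 36.7% of the 9902 genes with a pooled summit and 36.5% of those in the CCT length range, taking the strongest pooled summit of each gene (neighbouring genes can share one). Over regions rather than genes, and so not a like set, the share was 87.6% of nuclear optimal peaks. At cct-6 the 150 bp rule was met by 1 bp, with replicate 2 at 149 bp. The shares were not matched for pooled rank or for the number of replicate summits per kb. The median per kb at the CCT genes was 0.647 in replicate 1 and 0.938 in replicate 2. In the CCT length range it was 0.225 and 0.247. A replicate summit of any rank was counted, such as rank 15689 of replicate 1 at cct-3.

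**Figure D4:**
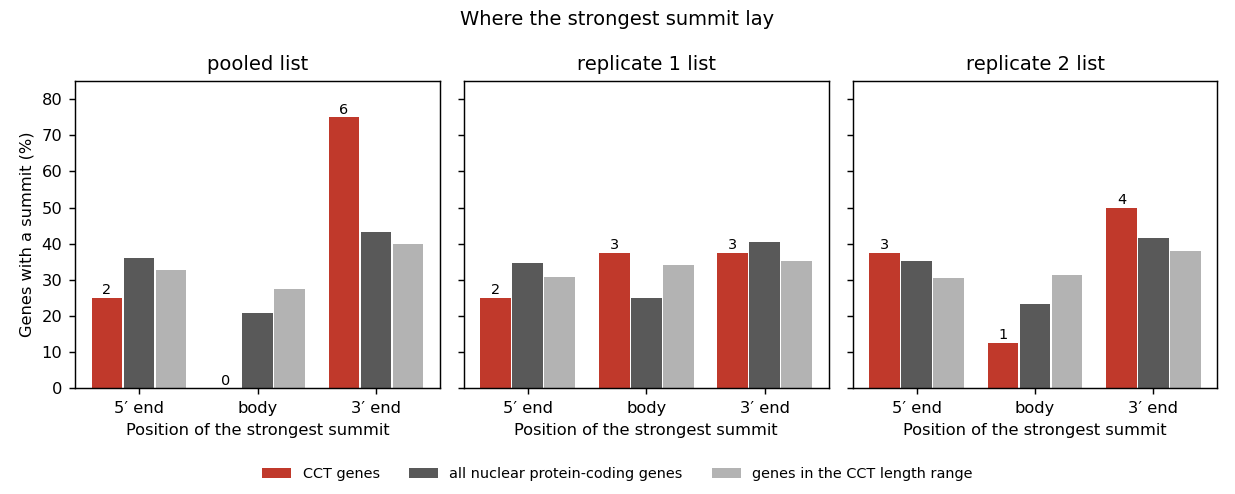
Share of genes (%) whose strongest summit lay at the 5′ end, in the body or at the 3′ end, in the pooled list, replicate 1 and replicate 2. Red bars are the CCT genes, with the number of genes above each, dark grey bars all nuclear protein-coding genes with a summit, and light grey bars those in the CCT length range. The red bar at the 3′ end stands above the grey ones in the pooled list (6 of 8 genes against 43.1%) and close to them in replicate 1 (3 of 8 against 40.4%).

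The long genes held summits along their introns. At cct-5, 8927 bp long, there were 12 pooled summits, 16 in replicate 1 and 10 in replicate 2. The stronger internal ones in the pooled list were intronic, at 3316 bp from the 5′ end (signal 25.2, rank 2641) and at 6597 bp (signal 24.1, rank 2990). The first had a summit of replicate 2 at 3350 bp (rank 2228), and the second had one of replicate 1 at 6565 bp (rank 1125). Neither had a close summit in the other replicate. Nearest to the first, replicate 1 had one at 3634 bp (rank 19836). Nearest to the second, replicate 2 had one at 7552 bp (rank 7687). In replicate 1 the strongest summit of cct-5 was upstream, 460 bp before the 5′ end and 281 bp upstream of the divergent gene F25F2.1 (signal 21.4, rank 648). The pooled list has this site at rank 7074, and in replicate 2 the nearest 5′ candidate was 673 bp upstream at rank 24873. By contrast cct-3, the longest of the genes, had 8 pooled summits, of which the 5 in its introns ranked between 18438 and 23646. At cct-8 the strongest summits away from the promoter were at the 3′ end, next to csn-4, a COP9 signalosome gene that follows after 94 bp: the pooled one lay 4 bp before the end (signal 22.4, rank 3624), and that of replicate 2 lay 35 bp past it (rank 3584). Replicate 1 had one 19 bp past the end (rank 11297) and a stronger one 898 bp past it, in an intron of csn-4 (rank 5917).

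Genes of prefoldin, actin, tubulin and the mitochondrial chaperonin were counted in the same way. None of the 6 prefoldin genes, whose products deliver clients to CCT, had an optimal summit (5.35% of all genes). In the pooled list 5 of 6 had one (49.6% of all genes), led by pfd-1 at rank 1707 and pfd-3 at rank 1799, and pfd-2 had none there. Of 5 actin genes, act-4 alone had an optimal summit, 81 bp inside its 5′ end at rank 657 (signal 42.6), with strongest replicate ranks of 1198 and 573. Next was act-2, at rank 1019. All 5 actin genes had a pooled summit, against 49.6% of all genes, and 5.35% of all genes had an optimal one. Actin genes are nearly identical in sequence, so regions there may share reads. Of 16 tubulin genes, 4 had an optimal summit (5.35% of all genes) and 10 a pooled summit (49.6%). The gamma-tubulin gene tbg-1 had its summit 827 bp upstream (rank 186, signal 69.9), and the alpha-tubulin gene tba-7 had one 320 bp inside the 5′ end (rank 216). The beta-tubulin genes tbb-2 and tbb-1 had theirs 545 and 751 bp past the 3′ end (ranks 507 and 829). The mitochondrial chaperonin gene hsp-60 had an optimal summit 629 bp upstream at rank 276 (signal 60.3), higher than any CCT gene. Neighbouring genes are not given for these related genes, so a summit outside its gene may belong to another gene. None of the strongest pooled summits of these related genes lay within 250 bp of a tRNA, snoRNA or snRNA gene.

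The optimal peaks nearest to those of the CCT genes in their replicate ranks were found by the sum of the absolute differences in log10 rank over both replicates, among the genes within 1000 bp of an optimal summit. For cct-6, ranked 135 and 10547, they were gei-17, a SUMO ligase gene, and mef-2, a transcription factor gene, which share 1 peak (130 and 10276), and aldo-2, an aldolase gene (161 and 10710). For cct-7, ranked 6399 and 352, they were the P granule gene pgl-1 (7203 and 349) and the neighbours M01F1.8 and lias-1, which share 1 peak (5738 and 374). For cct-8, ranked 322 and 1456, they were let-526 (290 and 1500), gei-4 (307 and 1681) and C24H11.2 (317 and 1184). The likeness rests on 2 samples and is a description.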

How the data were processed

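AMA-1 ChIP-seq regions of 2 biological replicates were taken as deposited on build ce11, which is the assembly of the WBcel235 annotation (Ensembl release 115); no region ended beyond a reference chromosome. Per the records deposited with the samples, candidate regions were called on each replicate and on the pooled replicates, each together with a control alignment, and the optimal list was derived from these. Column 7 is the authors' signal value, whose scale is not given. Column 9 is the deposited −log10 of a q-value. No source used here gives the aligner, the caller or the IDR threshold. Regions were ranked by signal (ties took the higher rank), placed by summit, and assigned to every gene within 1000 bp. Sequences came from the RefSeq copy of WBcel235. The code was tested on simulated summits. Members, lists and motifs were chosen with earlier results of these data known; all 8 genes, related genes with an optimal summit and the 3 likest genes were named by rule, and pfd-1, pfd-2, pfd-3 and act-2 after their values were seen. The neighbour arrangement, the count over both heat shock words, the search for words within regions and the interval past the 3′ end were likewise chosen after seeing the data. The ce10 pooled and optimal lists served only to look up the same regions; the ce10 replicate lists and the control experiment were not analysed here. Other windows, region overlap, stronger regions and single replicates were tried as alternatives. Analysis used Python 3.11.15, numpy 2.4.6, pandas 2.3.3 and matplotlib 3.10.9.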

Additional observations from a re-analysis of the deposited data

How the results depend on the processing

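The count of CCT genes with an optimal summit, 3, was 3 with windows of 500 and 2000 bp, with region overlap and without regions at small RNA genes, and 2 with 250 bp. It was 1 with a summit inside the gene (cct-7) and 1 within 1000 bp of the 5′ end (cct-8). Among the regions above the median signal of the list it was 0, and without one replicate it was 1 to 4. With the ce10 list, an alternative chosen after seeing the data, it was 4, from the strongest pooled region of each gene only. Counts in the candidate lists stayed at 7 or 8, except within 1000 bp of the 5′ end: 5 in replicate 1, 6 in replicate 2 and 4 in both. The share of all genes with an optimal summit, 5.35%, was 4.48%, 3.62%, 6.74% and 1.97% with windows of 500, 250, 2000 and 0 bp, 2.33% from the 5′ end, 3.81% without small RNA sites, 2.53% above the median signal, 6.34% in the CCT length range, 5.04% on CCT chromosomes and 5.15% to 5.19% without one replicate. With pooled regions, 49.6%, the same settings gave 46.2%, 43.4%, 54.2%, 37.2%, 37.6%, 48.8%, 39.9%, 57.3%, 48.3% and 56.0% to 57.0%. No paired analysis was possible because there is 1 group. Depth is unknown, so weak and absent regions cannot be told apart.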
